A study of Drosophila melanogaster with 6 samples.

Results

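The sex determination and dosage compensation genes of Drosophila melanogaster were followed in S2 cells with and without an intact gene for Tailor (CG1091). The 10 genes were Sxl, tra, dsx, msl-1, msl-2, msl-3, mle, mof, roX1 and roX2, matched by gene name in each library's table, and all 10 were found among the 14210 genes listed. Polyadenylated RNA was sequenced from 3 libraries of wild-type S2 cells (Schneider 2 cells, a cultured line of embryonic origin) and 3 libraries of S2 cells carrying a stable CG1091 knockout made with CRISPR/Cas9. Tailor uridylates the 3' ends of RNA, and the title of the series names hairpin RNAs as its substrates. Biological replication is stated for the knockout but not for the wild type, and the number of edited clones is not stated. The p-values thus reflect variation among these libraries only, possibly technical, and the edited gene and the history of the edited cells cannot be told apart.

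In flies, the number of X chromosomes sets whether the RNA-binding protein Sxl is made. In females Sxl directs the splicing of tra, Tra directs that of dsx and fru, and Sxl blocks the translation of msl-2. In males, where functional Sxl is absent, Msl-2 joins Msl-1, Msl-3, the helicase Mle, the histone acetyltransferase Mof and the noncoding RNAs roX1 and roX2 in the MSL complex, which binds the single X and raises its transcription. S2 cells are known as a male-type line that assembles this complex. Male and female forms of Sxl, tra and dsx differ by splicing, and Sxl and tra are transcribed in both sexes. The values here are per gene, so they do not show which form was present.

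Levels are in FPKM, a fragment number scaled to transcript length and to the size of the library. The deposited confidence intervals give back an effective number of fragments per gene, and these numbers summed to 18411809 to 22957816 per library. CG1091 itself (FBgn0037470) had 50.7, 51.2 and 47.7 FPKM in wild type and 22.3, 26.1 and 26.1 FPKM in the knockout, so its mRNA was lower in every knockout library but still present. Of 8 hemocyte markers, 7 were matched by name. The GATA factor gene srp, its cofactor gene ush and the scavenger receptor gene crq stood at 58.7, 40.7 and 224 FPKM in wild type, while eater and Pxn were at 2.59 and 3.12 FPKM and He and Hml under 1. In the knockout the means were 67.1 FPKM for srp, 57.3 for ush, 263 for crq and 3.51 for eater. He went from 0.584 to 1.55 FPKM and Hml from 0.398 to 1.52 FPKM, while Pxn fell from 3.12 to 1.47 FPKM (log2 change -0.74, limma adjusted p = 6.27e-05). The libraries of the groups were apart in each of the 6 markers tested, as in 67.3% of all genes tested, and in Hml, which was below the filter of the test. He entered the test only through its knockout level, with 5 to 24 effective fragments per library, so its separation adds little. The germline genes vas, nos and bam stayed under 0.4 FPKM in every library, the gonad gene tj was listed at 0, and fs(1)Yb had 3.42 FPKM in wild type and 4.98 in the knockout. The part of these marker differences in the results was not tested.

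In wild-type cells the 10 genes spanned a wide range of levels, with roX2 far above the others. On the FPKM scale roX2 had a mean of 263 ± 2.55 (SD, n = 3), followed by Sxl at 41.9 ± 1.66. The genes for the protein subunits of the MSL complex lay close together, with msl-2 at 28.4 ± 1.05, mle at 24.3 ± 0.162, mof at 22.3 ± 0.414, msl-3 at 19.7 ± 0.302 and msl-1 at 19.2 ± 0.808 FPKM. Below them came tra at 12.2 ± 0.917, dsx at 3.05 ± 0.300 and roX1 at 0.375 ± 0.0331 FPKM. Neighbours in this order did not overlap between libraries, except msl-3 and msl-1. In the knockout roX2 and Sxl again led, but the mean of msl-3 lay below those of msl-1 and tra. There mof overlapped msl-1, and tra overlapped msl-3.

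**Figure D1:**
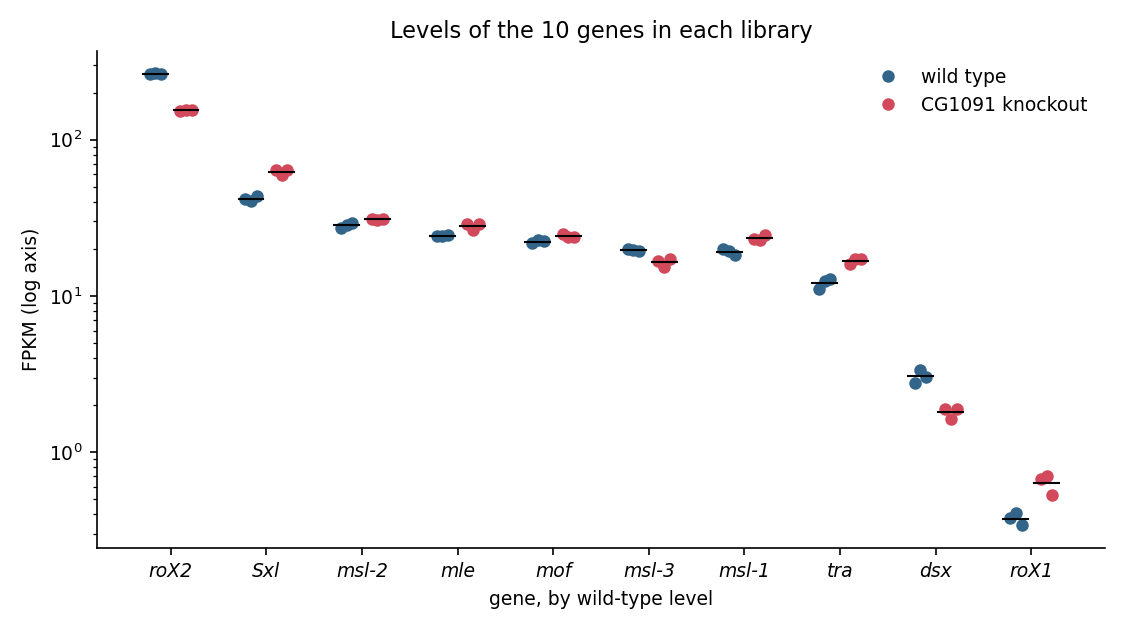
FPKM of each gene in each library on a log axis, wild type in blue and CG1091 knockout in red, with short lines at the group means (n = 3 each). The 2 groups of points do not overlap for any of the 10 genes, and roX2 lies above all others in both groups.

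Tests were run with limma on log2(FPKM + 1) over the 7259 genes whose mean reached 1 FPKM, with Benjamini-Hochberg adjusted p-values and a threshold of 0.05. Of the 10 genes 9 could be tested, and roX1 was below the filter. All 9 passed, 6 higher and 3 lower in the knockout, against 62.1% of all tested genes passing (30.1% higher and 32.1% lower). For each of the 9 the libraries of the groups were fully apart, as they were for 67.3% of tested genes. Of the 10 genes, 8 passed in the authors' deposited table, where 36.0% of its 11643 genes did. Of its genes with a finite log2 change, which include all 10, 40.4% passed. None of the 9 reached a 2-fold change in the limma fit on log2(FPKM + 1). Of all tested genes, 4.01% passed that fit with a change of at least 2-fold. On the log2(FPKM + 1) scale roX2, Sxl and dsx had the largest changes and msl-2 and mof the smallest. The order of Sxl, dsx and tra depended on the setting: with the exon length trend removed tra stood at 0.59 and Sxl at 0.44, and with a pseudocount of 5 dsx stood at -0.24 and tra at 0.35. The median log2 change of the 9 was 0.12, beside -0.01 over all tested genes. With the exon length trend removed it was 0.08, beside 0.0 over all genes in that fit. There 6 of the 9 were called (3 higher, 3 lower), beside 61.0% of all genes. In RNA from whole cultures, fewer cells with a transcript and less of it per cell cannot be told apart. With so many genes passing, the count by itself does not set these genes apart.

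**Figure D2:**
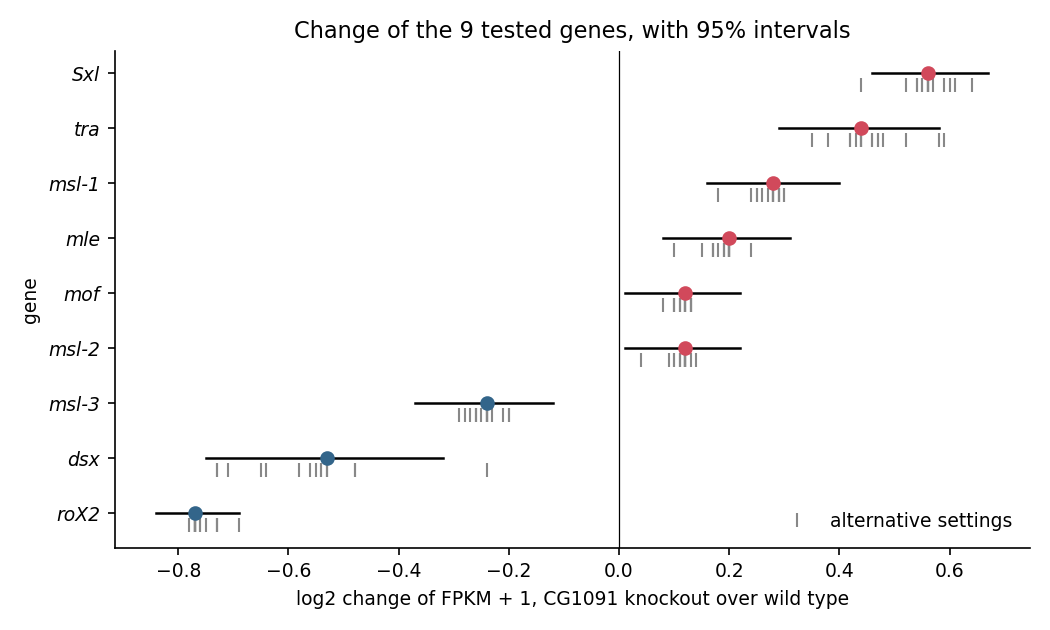
Log2 change of FPKM + 1, knockout over wild type, for the 9 tested genes (points, red above 0 and blue below) with 95% intervals (lines) and the values under alternative settings (grey ticks). The intervals of mof and msl-2 nearly reach 0, and no alternative places any of the 9 genes on the other side of 0.

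The noncoding RNA roX2, which with roX1 is needed for the MSL complex to spread along the X, fell. Its wild-type libraries had 262, 266 and 262 FPKM and its knockout libraries 153, 154 and 156 FPKM. The replicates lay within a few FPKM of each other, and the gap between the groups was many times wider than either group. The mean went from 263 ± 2.55 to 154 ± 1.23 FPKM, 1.70-fold lower (log2 change -0.77, SE 0.0337, 95% interval -0.84 to -0.69, limma adjusted p = 9.62e-09). Of all tested genes, 3.09% had a lower log2 change, and among the 1257 tested genes of the X it ranked 31 from the bottom. The gene (FBgn0019660) lies on the X from 11473089 to 11474465 in the files' own coordinates, of a genome build that no source used here names. It has 1368 bases of exon in the reference annotation, and short transcripts were in general lower in the knockout. Tested genes within 1.2-fold of its length had a median log2 change of -0.08, and with the length trend taken out of each library roX2 stood at -0.69.

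RoX1 (FBgn0019661, X from 3752929 to 3756720), the longer and partly redundant partner RNA, was scarce. It had 0.378, 0.406 and 0.340 FPKM in wild-type libraries and 0.671, 0.703 and 0.529 FPKM in knockout libraries. All knockout values were above all wild-type values, the opposite order to roX2. Between 26 and 55 effective fragments per library stand behind them, for a counting error of up to 19.6%, and the main test left the gene out. Without the filter, the log2 change on the log2(FPKM + 1) scale was 0.25 (limma adjusted p = 0.0316, with 38.9% of genes passing). For roX1 a log2 change of 0.76 stands in the authors' deposited table (adjusted p = 0.0264). Per unit length roX2 exceeded roX1 by a factor of 656 to 770 in wild-type libraries and 220 to 294 in knockout libraries.

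Msl-1 and msl-3, which encode the scaffold of the complex and its chromodomain subunit, moved in opposite directions. Msl-1 (FBgn0005617, chromosome 2L from 18683720 to 18688796) had 19.9, 19.5 and 18.3 FPKM in wild type and 23.2, 22.9 and 24.7 FPKM in the knockout, every knockout library above every wild-type library. Its log2 change was 0.28 (SE 0.0544, limma adjusted p = 0.00097). With the length trend removed it was 0.18 (adjusted p = 0.0123), and tested genes of like exon length had a median of 0.12. Msl-3 (FBgn0002775, chromosome 3L from 7116310 to 7118623) had 19.9, 19.7 and 19.3 FPKM in wild type and 16.7, 15.4 and 17.3 FPKM in the knockout, every knockout library lower. Its log2 change was -0.24 (SE 0.0567, limma adjusted p = 0.00312). The FPKM ratio of msl-1 to msl-3 was therefore near 1 in wild type (0.947 to 0.996) and 1.39 to 1.49 in the knockout. On chromosome 3L the 3' ends of msl-3 and form3, on opposite strands, overlap by 88 bases. Form3, at 1.15 FPKM in wild type and 1.95 FPKM in the knockout, moved the other way (log2 change 0.46, limma adjusted p = 0.00201). Any share of form3 fragments in the msl-3 value was not tested.

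Mle, the RNA helicase that remodels the roX RNAs for assembly, rose slightly. The gene (FBgn0002774, chromosome 2R from 1862243 to 1868277) had 24.3, 24.2 and 24.5 FPKM in wild type and 29.0, 26.4 and 28.7 FPKM in the knockout, with no overlap. The log2 change was 0.20 (SE 0.0512, limma adjusted p = 0.00634), and tested genes of like exon length had a median of 0.11. With the length trend removed, the limma adjusted p of mle was 0.0696 at a log2 change of 0.10.

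Msl-2, the RING finger subunit whose translation Sxl blocks in females, and mof, the enzyme that acetylates histone H4, passed only narrowly. Msl-2 (FBgn0005616, chromosome 2L from 3462213 to 3466111) had 27.3, 28.6 and 29.4 FPKM in wild type and 31.1, 30.6 and 31.0 FPKM in the knockout. Mof (FBgn0014340, X from 5767868 to 5770884) had 21.8, 22.7 and 22.3 FPKM in wild type and 24.9, 23.9 and 24.0 FPKM in the knockout. In both genes the groups were separate by a small margin. The log2 change was 0.12 in each, with limma adjusted p = 0.0491 for msl-2 (95% interval 0.01 to 0.22) and 0.0484 for mof (95% interval 0.01 to 0.22). Tested genes of like exon length had a median of 0.09 for msl-2 and 0.04 for mof. With the length trend removed, the log2 change was 0.04 for msl-2 (limma adjusted p = 0.388) and 0.08 for mof (limma adjusted p = 0.123). Each call was lost in 12 of 17 alternatives. That of mof was lost without any 1 of the 6 libraries (limma adjusted p = 0.0502 to 0.160), and that of msl-2 without any 1 library but wild-type replicate 3 (0.0592 to 0.138 for the other 5). The authors' deposited table listed adjusted p-values of 0.209 for msl-2 and 0.257 for mof. The FPKM ratio of roX2 to msl-2 lay between 8.90 and 9.59 in wild-type libraries and between 4.92 and 5.05 in knockout libraries.

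Sxl, the switch gene of the pathway, rose. Its libraries had 41.5, 40.5 and 43.7 FPKM in wild type and 63.9, 59.4 and 63.8 FPKM in the knockout. The lowest knockout library was well above the highest wild-type library. The mean went from 41.9 ± 1.66 to 62.4 ± 2.58 FPKM, 1.49-fold higher (log2 change 0.56, SE 0.0482, 95% interval 0.46 to 0.67, limma adjusted p = 2.44e-06), and 7.77% of tested genes had a higher log2 change. The gene (FBgn0264270) spans 6969698 to 6992089 of the X in the files' coordinates and was given 25 transcripts there. Its FPKM depends on how fragments were divided among those transcripts. In the authors' deposited table, which compares normalised counts per gene, Sxl stands at a log2 change of 0.61. Tested genes of like exon length (within 1.2-fold) had a median log2 change of 0.09. That length counts all exons of the gene, and for Sxl it can exceed the length of the transcripts present. The FPKM ratio of Sxl to msl-2 lay between 1.42 and 1.52 in wild type and between 1.94 and 2.06 in the knockout. As the values are per gene, this ratio does not show which form of Sxl was present.

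Tra, the splicing regulator directly below Sxl, rose as well. The gene (FBgn0003741, chromosome 3L from 16583159 to 16584150) had 11.1, 12.5 and 12.9 FPKM in wild type and 15.9, 17.3 and 17.2 FPKM in the knockout, with no overlap. The log2 change was 0.44 (SE 0.0663, limma adjusted p = 0.000174), from 202 to 336 effective fragments per library. The 3' end of tra overlaps that of l(3)73Ah on the opposite strand by 74 bases. L(3)73Ah rose from 26.8 to 42.1 FPKM (log2 change 0.63). The library kit was directional, but no source used here says whether strand was used in assigning reads, so the share of the tra value that comes from its neighbour was not tested.

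Dsx, which encodes the transcription factor that carries out sexual differentiation, was low and fell. The gene (FBgn0000504, chromosome 3R from 3750045 to 3793130) had 2.78, 3.37 and 3.01 FPKM in wild type and 1.89, 1.62 and 1.90 FPKM in the knockout, every knockout library lower. The mean went from 3.05 ± 0.300 to 1.80 ± 0.160 FPKM, 1.69-fold lower. On the log2(FPKM + 1) scale, which understates changes of low genes, the log2 change was -0.53 (SE 0.0979, limma adjusted p = 0.000704), and it was -0.71 in the authors' deposited table. Each library had 123 to 244 effective fragments of dsx. The 3' end of dsx overlaps that of lds, on the opposite strand, by 169 bases. Lds had 26.0 FPKM in wild type and 23.5 FPKM in the knockout (log2 change -0.14, limma adjusted p = 0.0288). As for tra, the share of the dsx value that comes from its neighbour was not tested.

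The other genes of these pathways were described with 5 lists of 51 genes, all matched by name, of which 41 could be tested. Of the 41, 11 rose, 13 fell and 17 did not pass, a share of 58.5% called beside 62.1% of all tested genes. Their median log2 change was -0.01, equal to that of all tested genes, and none passed a log2 change of 1 on the log2(FPKM + 1) scale. With the exon length trend removed, 19 of the 38 with an exon length were called (9 rose, 10 fell), beside 61.0% of all tested genes.

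Genes that count the X or set the starting signal of Sxl were mostly silent. The X-linked signal genes sisA, sc, run and os (unpaired) and the autosomal dpn had means under 0.4 FPKM in both groups and were not tested. Among the 4 that were tested, 2 rose, 1 fell and 1 was not called. Da, the bHLH partner of the X-linked activator sc, rose from 29.8 ± 1.46 to 43.0 ± 3.02 FPKM (SD, n = 3 per group, log2 change 0.51). Gro, a corepressor gene, had a log2 change of 0.12 (limma adjusted p = 0.0293), and tested genes of like exon length had a median of 0.10. Emc, an inhibitor of bHLH factors, had a log2 change of -0.19 (limma adjusted p = 0.0397) with overlapping groups, beside a like-length median of -0.02.

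Factors that act on Sxl splicing moved both ways: 4 of 13 tested genes rose, 2 fell and 7 were not called, at a median log2 change of 0.03. Fl(2)d, a subunit of the m6A methyltransferase complex needed for female Sxl splicing, rose from 33.6 ± 0.483 to 48.6 ± 0.508 FPKM (log2 change 0.52). Nito, another subunit, and YT521-B, the nuclear reader of that RNA mark, had log2 changes of 0.31 and 0.32 (limma adjusted p = 0.00124 and 0.000994). U2af50, the large subunit of the splice site factor U2AF, fell from 102 ± 1.55 to 85.4 ± 1.09 FPKM. The catalytic gene Ime4 had 6.12 ± 0.183 FPKM in wild type and 5.84 ± 0.607 in the knockout and did not pass (named after its value was seen, limma adjusted p = 0.528).

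Along the tra and dsx axis 5 of 10 genes were tested, of which 1 rose, 3 fell and 1 was not called. Tra2, the obligate partner of Tra, fell from 39.9 ± 2.07 to 33.0 ± 3.16 FPKM (log2 change -0.27). Ix, partner of the female Dsx protein, fell from 17.7 ± 1.17 to 14.4 ± 1.71 FPKM (log2 change -0.29). Bab2, a target of Dsx in the abdomen, was the member that rose, from 0.610 ± 0.231 to 1.64 ± 0.139 FPKM (log2 change 0.72), and it entered the test only through its knockout level. The yolk protein genes Yp1, Yp2 and Yp3, classic targets of female Dsx, had means under 0.4 FPKM in both groups and were not tested.

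Among partners of the MSL complex 2 of 13 rose, 4 fell and 7 were not called, at a median log2 change of -0.03. CG1832, the zinc finger protein Clamp that brings the complex to the X, rose from 63.8 ± 2.82 to 78.5 ± 0.477 FPKM (log2 change 0.30). Unr, which represses msl-2 translation together with Sxl, rose from 149 ± 9.95 to 189 ± 2.84 FPKM (log2 change 0.34), and how, a regulator of msl-2 splicing, fell from 32.2 ± 1.68 to 26.9 ± 0.221 FPKM. Pof, which binds genes of the fourth chromosome, fell from 18.0 ± 0.810 to 13.1 ± 0.502 FPKM (log2 change -0.43). In the NSL complex, which shares Mof, 2 of 6 members rose, 3 fell and 1 was not called. Rcd1 and wah had log2 changes of 0.34 and 0.22, and wds and MBD-R2 of -0.30 and -0.22.

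**Figure D3:**
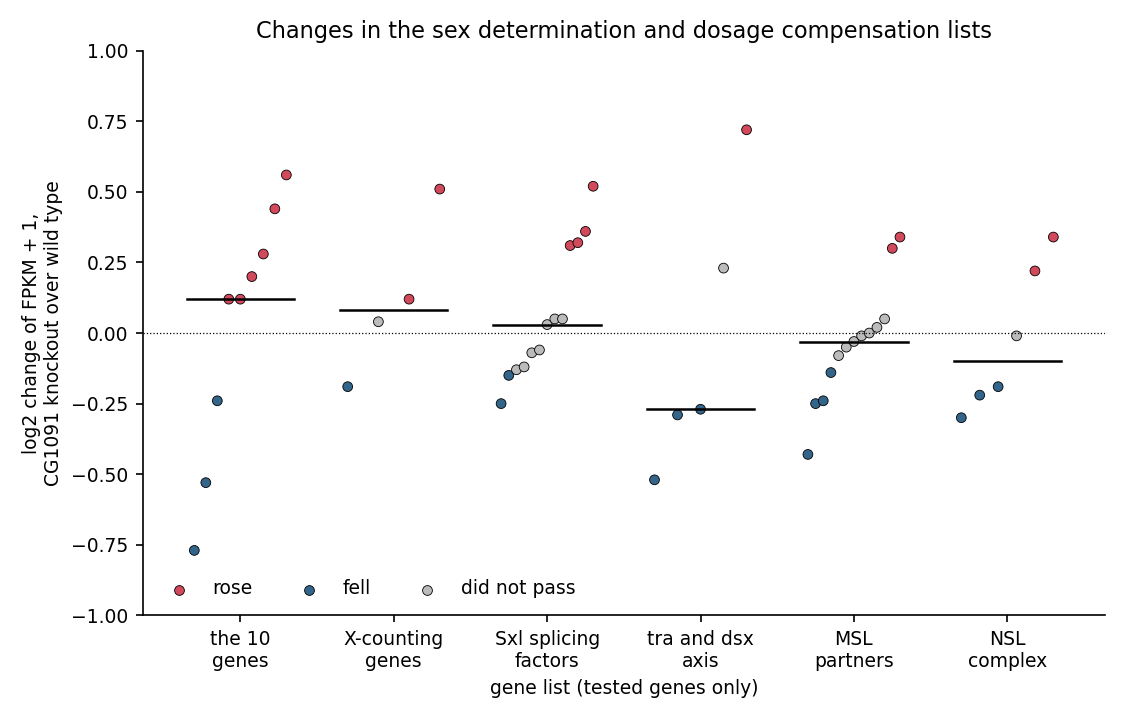
Log2 change of FPKM + 1, knockout over wild type, of every tested gene of the pathway and of 5 lists of related genes, coloured by call, with lines at the list medians. All values lie within 1 log2 unit of 0, and the list medians lie between -0.27 and 0.12.

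X-linked transcript levels, the output on which dosage compensation acts, were compared with those of the autosomes. The median log2(FPKM + 1) of the 1257 tested X-linked genes minus that of 5916 genes on 2L, 2R, 3L and 3R was -0.417, -0.373 and -0.397 in wild-type libraries. It was -0.365, -0.394 and -0.401 in knockout libraries, and the groups overlapped. The means were -0.396 ± 0.022 and -0.386 ± 0.019 (SD, n = 3 per group), a difference of 0.009 (two-sided exact permutation p = 0.6, where the smallest p of 3 against 3 libraries is 0.1). Without wild-type replicate 1 the difference was -0.001, without knockout replicate 1 it was -0.002, and with the length trend removed it was -0.042 (exact permutation p = 0.1). With no filter on low genes it was 0.066 (exact permutation p = 0.1), in the other direction.

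Gene by gene, 361 X-linked genes rose and 383 fell, 59.2% of those tested, beside 62.1% of all tested genes. The median log2 change was -0.01 on the X and -0.01 on the autosomal arms. Quartiles were -0.20 and 0.21 on the X and -0.23 and 0.21 on the autosomes. Called changes of at least 2-fold were rarer on the X, with 1.67% higher and 1.03% lower, against 2.65% and 1.69% on the autosomes. The median exon length was 2341 bases on the X and 2013 bases on the autosomal arms.

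**Figure D4:**
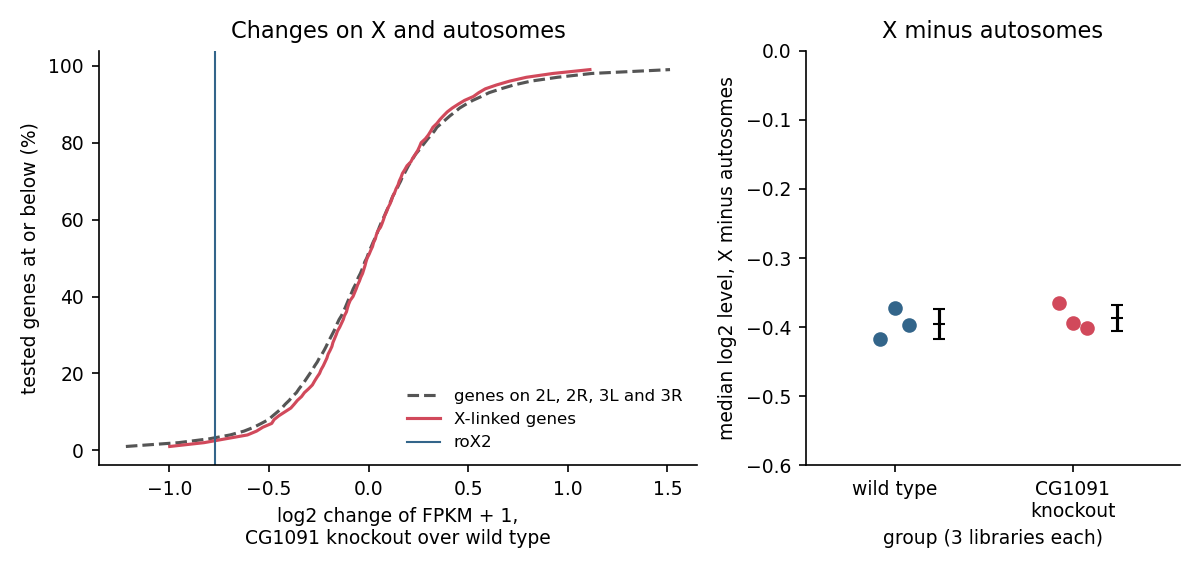
Left, the percentage of tested genes at or below each log2 change of FPKM + 1 (knockout over wild type) for X-linked and autosomal genes, with the value of roX2 as a vertical line; right, the median log2 level of X-linked minus autosomal genes in each library, with mean and SD. The curves lie close together in the middle, and that of the X is narrower at both ends. The libraries of the 2 groups overlap, and all of them lie between -0.417 and -0.365.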

How the data were processed

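Libraries (3 wild type, 3 CG1091 knockout) were grouped by title; the kit was directional per the labels' protocols. The authors deposited one FPKM table per library, with bounds of a confidence interval, in Cufflinks format per the file headers. Their deposited comparison table (a DESeq result per the file headers) holds group means of normalised counts (a signal), the fold ratio, its log2 and p-values. Those log2 values set wild type over knockout and were multiplied by -1 here. Per the submitters' processing notes the tools were DESeq 1.10.1, HTSeq 0.6.1p1, Cufflinks 1.3.0, TopHat 1.4.1 and BWA 0.6.1, with no roles stated. Genome build and aligner settings: not given in the sources used here. Coordinates are the files' own, made 1-based. None of the 10 genes has those coordinates in the BDGP6 annotation, which served only for strand and for exon length (95.2% of tested genes). Exon length is the union of all annotated exons of a gene. For genes with several transcripts, such as Sxl and dsx, it is only a rough guide to the length that was measured.

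The fit used limma 3.58.1 under R 4.3.3 (lmFit, eBayes with trend and robust settings) on log2(FPKM + 1) for 7259 genes at or above a mean of 1 FPKM, calling genes under a Benjamini-Hochberg adjusted p of 0.05. It was tested on simulated data with independent noise, few changed genes and no exon length trend, which differs from the data here. Effective fragment numbers are 2 times the FPKM, divided by its distance to the upper bound, squared. Where a gene has 1 transcript, 92.6% to 93.1% of such numbers below 30 came within 0.02 of an integer. For genes with several transcripts they are only approximate, and errors taken from them cover counting only. The genes and lists were chosen with earlier results of these data known. Named genes are the 10, CG1091, genes overlapping the 10, cell type markers and up to 4 called genes per list by smallest p; 1 gene that this rule gives is not reported here. The alternatives changed the pseudocount (0.1 or 5), the filter (none, or 5 FPKM), the scaling (median, quantile), the eBayes settings, the block (replicate number), the libraries (each left out) or the data (the deposited table, or limma-voom on effective fragments). A lowess trend on exon length (span 0.3), removed from each library, was chosen after seeing the data. Plots used matplotlib 3.10.9 (Python 3.11.15).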

Additional observations from a re-analysis of the deposited data

How the results depend on the processing

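Between 6 and 9 of the 10 genes were called throughout. The lowest count, 6, came with the exon length trend removed, where 3 rose and 3 fell, beside 61.0% of all tested genes called. No log2 change turned sign in the alternatives run (17 for each gene but dsx, with 16, and roX1, with 1). Sxl, tra, msl-1, msl-3 and roX2 passed in all 17 and dsx in all 16 that tested it. The calls of msl-2 and mof were each lost in 12 of 17 (adjusted p up to 0.388 and 0.257), and that of mle was lost with the length trend removed. The log2 change of dsx ranged from -0.73 with a pseudocount of 0.1 to -0.24 with a pseudocount of 5, and that of roX2 from -0.78 to -0.69. With the replicate block 7 of the 10 genes were called. Deviations of same-numbered libraries from their group means correlated at -0.049, 0.003 and -0.032. These values show no shared deviation, but do not settle whether the libraries were paired by number. The X minus autosome difference was 0.066 with no filter (exact permutation p = 0.1), 0.048 with quantile normalization, -0.042 with the length trend removed (exact permutation p = 0.1), and -0.002 to 0.020 with 1 library left out; the cause was not tested. Over all genes tested, 62.1% passed in the main setting and 38.9% without the filter. RoX1 is limited by depth, with at most 55 effective fragments in any library.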
